A study of Mus musculus with 14 samples.

Results

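The Kruppel-like factors described here are 10 genes, Klf2, Klf3, Klf4, Klf5, Klf6, Klf7, Klf9, Klf10, Klf13 and Klf16, measured with Affymetrix mouse expression arrays in 14 retinal ganglion cells (RGCs), each taken singly from adult retina. Members were all probe sets that the array's annotation gives to a single gene of this list, 34 of the 45037 probe sets tested, and the genes are 10 of the 18193 named in that way. The cells came from a cross of Parvalbumin-cre mice (129P2/OlaHsd) with Ai9 Tomato mice (C57BL/6 and 129 SV), used as double heterozygotes on a mixed background. These strains are those of the labels, whereas the study's methods place the Cre line on a segregating background of C57BL/6 and 129P2OlaHsd and the reporter on C57BL/6J. Cre follows the parvalbumin gene Pvalb, so red cells are those that have at some time expressed it, and the study notes that the reporter was uneven and that brighter cells were easier to pick. The retinas were dissociated with papain, and each red cell was collected by pipette with no culture. All cells formed 1 group in the labels, named here cell 1 to cell 14, and no source used here ties a cell to an animal. No groups were compared and no test was made. The study itself clustered these cells by their signals and names Klf9 and Klf10 among the genes of its largest cluster. Its text places its tdTomato cell 1 outside that cluster, in a cluster alone, and does not list the cells of the other clusters. It does not say whether its numbering is that of the labels, so its clusters were not used here.

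Kruppel-like factors are transcription factors that share a set of zinc fingers at the C-terminal end, through which they bind GC-rich and CACCC sequences, and differ in the rest of the protein, which recruits activators or repressors. In RGCs they are known for their effect on axon growth. Klf6 and Klf7 promote growth of neurites in cultured neurons, Klf4 and Klf9 suppress it, and the balance shifts towards suppression as RGCs mature. Klf9, Klf13 and Klf16 are close relatives that can recruit the Sin3 corepressor, Klf3 is a repressor that works through Ctbp proteins, and Klf10 was first described as a gene induced by TGF-beta.

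Detection of a probe set required a MAS5 signal 8 or more times the array's own median. By this rule 4191 to 11910 probe sets were detected per cell, and the detection threshold ranged from a signal of 64.2 in cell 14 to 439.7 in cell 1. The label of the cells was borne out by most, though not all, RGC markers. Of 13 RGC markers measured, 8 to 12 were detected per cell, and Sncg, Nefl, Nefm, Nefh, Thy1, Slc17a6 and Stmn2 were detected in all 14. Pou4f1 was detected in 13 cells, Rbpms in 11, Ebf1 in 9, Ebf3 in 7, Isl2 in 2 and Pou4f3 in none. The authors kept libraries that gave a PCR product for Sncg and none for rhodopsin or glutamine synthetase, so the presence of Sncg is not independent. On the arrays the glutamine synthetase gene Glul was nevertheless detected in 8 cells (1, 2, 3, 4, 6, 7, 9 and 12), at 417 to 15865, and 0 to 5 of 11 Müller glia markers were detected per cell, with 5 in cells 1, 4 and 6. The part of such transcripts in the members' signals was not tested. Of 13 rod markers, cells 3 and 6 each showed 10 and the other cells 1 to 4. Gnat1 was detected in 7 cells, among them cells 13, 14, 11 and 5 at 14374, 8680, 8081 and 3372. Rom1 was detected in 9 cells, and Pdc and Sag read 10287 and 6472 in cell 2. The members' counts are also given without cells 3 and 6, which does not leave a set free of rod transcripts.

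Both growth-enhancing factors and 1 of the pair of growth suppressors were found in many of these cells. Klf9 was detected in 11 cells, Klf10 in 9, Klf6 in 8 and Klf7 in 7. Klf13 was detected in 5 cells, Klf2 and Klf16 in 1 each, and Klf3, Klf4 and Klf5 in none by the probe set chosen for each gene, which is the one with the highest mean log2 signal. At least 1 detection was seen for 7 of 10 members, against 58.2% of all genes, and 4 of 10 members were detected in at least 7 cells, against 24.8% of all 18193 genes. The median was 3 cells per member, against 1 cell over all genes. Of the 140 values (10 members in 14 cells), 42 were detections, against 25.2% of the values of all genes. These numbers describe a list chosen with earlier results of these cells known, and nothing is read from them about the family as a whole. Without cells 3 and 6, the same 4 genes were detected in 10, 7, 7 and 6 of the 12 remaining cells.

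**Figure D1:**
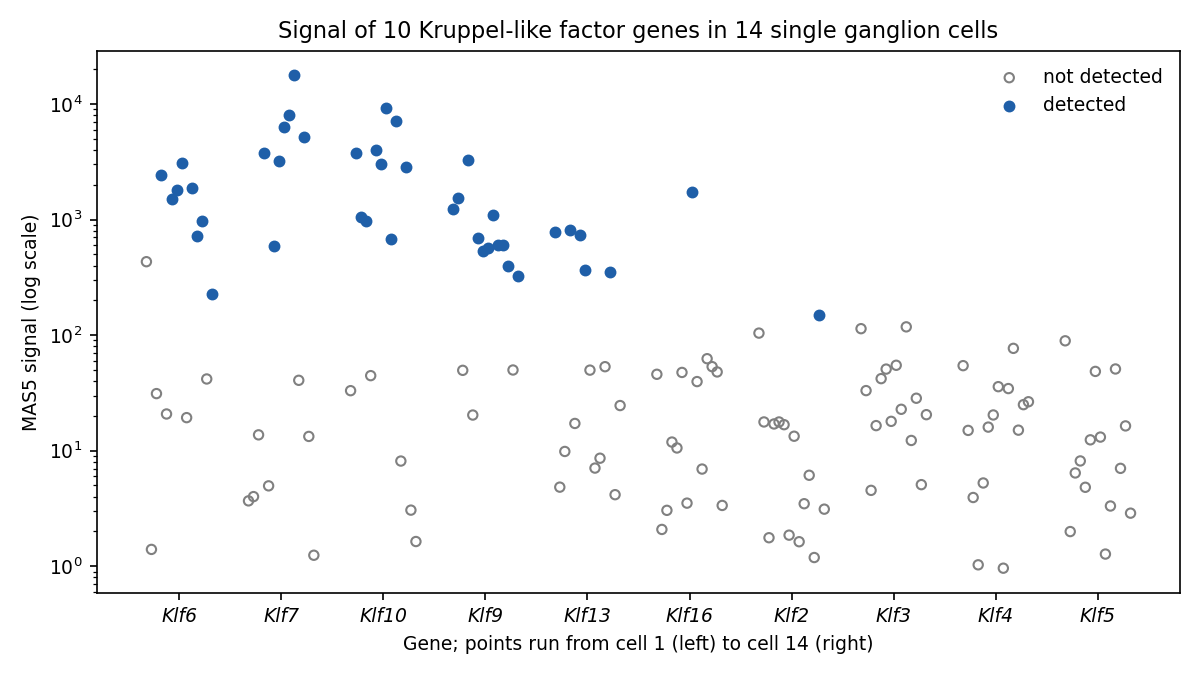
MAS5 signal (vertical axis, log scale) of the chosen probe set of each of the 10 Kruppel-like factor genes (horizontal axis), with a point for each of the 14 cells, filled where detected and open where not. Klf6, Klf7, Klf10, Klf9 and Klf13 show filled points in 5 to 11 cells, Klf16 and Klf2 in 1 each, and Klf3, Klf4 and Klf5 in none.

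Klf6, a growth-promoting factor that is also an early response gene, had signals from 1.40 to 3069 with a median of 579.6, and a mean log2 signal of 7.90 ± 3.42 (SD, n = 14 cells). The detected signals were 3069 in cell 8, 2427 in cell 4, 1882 in cell 10, 1787 in cell 7, 1505 in cell 6, 965 in cell 12, 727 in cell 11 and 227 in cell 14. In the other cells Klf6 read at most 41.7, except in cell 1, where 432 lay just under the threshold of 439.7. The detected and undetected signals thus overlapped, through cell 1 alone, whose array median was the highest of the 14.

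A second probe set of Klf6 told nearly the same story. It was detected in the same 8 cells and in cell 1, with signals of 441 to 3812 in these 9 cells and at most 2.25 in the other 5. Over the 14 cells the log2 signals of both probe sets had Pearson's r = 0.985, as a description across cells that differ in depth. Of the other 3 probe sets, 1 was detected in 4 of these cells (120 to 3939, highest in cell 7), 1 in cells 4 and 8 (127 and 144) and 1 in none, where it read at most 30.4.

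Klf7, the other growth-promoting factor, varied the most widely in signal. The chosen probe set ranged from 1.24 to 17704 with a median of 314 and a mean log2 signal of 7.44 ± 5.08 (SD, n = 14 cells). It read 17704 in cell 10, 8111 in cell 9, 6345 in cell 8, 5144 in cell 12, 3739 in cell 4, 3219 in cell 7 and 586 in cell 6. The remaining 7 cells read no more than 40.7, which is under all 14 thresholds, so detected and undetected cells were clearly apart.

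The probe sets of Klf7 did not identify the same cells. Another probe set was detected in 5 cells, of which 3 (cells 7, 8 and 12) were shared with the chosen one. Its highest signal, 30119, was in cell 5, where the chosen probe set read 4.96 and where fewer probe sets were detected than in any other cell. In cells 11, 8, 7 and 12 it read 2761, 3435, 2272 and 1120, and elsewhere at most 40.2. The correlation between both probe sets was near 0 (r = 0.0305, n = 14 cells). The other 2 probe sets were detected in cells 6, 7, 9 and 12 (168 to 3149) and in cell 9 alone (275). Counting any probe set, Klf7 was detected in 9 cells, and cells 1, 2, 3, 13 and 14 lacked it.

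Klf9, a growth suppressor that responds to thyroid hormone and glucocorticoids, was the most widely detected member. Its chosen probe set ranged from 20.3 to 3303 with a median of 584 and a mean log2 signal of 8.67 ± 2.08 (SD, n = 14 cells), the smallest spread of the 5 members detected in at least 4 cells. It was highest in cell 4 (3303), followed by cell 2 (1529), cell 1 (1224) and cell 9 (1098), and read 323 to 688 in cells 6, 7, 8, 10, 11, 12 and 14. Cells 3, 5 and 13 read 49.6, 20.3 and 49.9. Most of these detections were therefore of modest signal. Klf9 reached a signal of 1000 in 4 cells, and it was detected in 1 cell when the number of probe sets called was held at 4191, the lowest count of any cell, in each cell.

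Other probe sets of Klf9 gave much larger signals in fewer cells. One was detected in 7 cells, at 14465 in cell 6, 10148 in cell 12, 9227 in cell 7, 6480 in cell 9, 2567 in cell 4, 792 in cell 8 and 210 in cell 2. Another was detected in 9 cells, with 10693 in cell 12 and 5191 in cell 6 as the highest and 464 in cell 4 as the lowest, and included cell 3 (868), where the chosen probe set was not detected. A further 2 were detected in 8 and 4 cells. In cells 6, 7, 9 and 12 Klf9 was detected by 5 of the 7 probe sets, and in every cell by at least 1. In cells 1, 11 and 14 the detection rested on the chosen probe set, and in cells 3, 5 and 13 on 1 other probe set each, at signals of 868, 98.7 and 120. The probe set that was detected in cell 5 read 226 in cell 10, where it was not detected. The 4 probe sets detected in the most cells were correlated over cells at r = 0.253 to 0.822.

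Klf10, a repressor of proliferation, is represented by a single probe set. Signals ranged from 1.64 to 9193 with a median of 1013 and a mean log2 signal of 8.44 ± 4.35 (SD, n = 14 cells). It was highest in cell 8 (9193) and cell 10 (7194), read 3983 in cell 6, 3768 in cell 2, 3012 in cell 7 and 2846 in cell 12, and was lower in cell 3 (1052), cell 4 (973) and cell 9 (680.0). The other 5 cells, 1, 5, 11, 13 and 14, read at most 44.6, so no undetected signal came near a detected one. With 4191 probe sets called in every cell Klf10 was detected in 7 cells, against 6 for Klf7, 2 for Klf6, 1 for Klf9 and 0 for Klf13.

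Klf13, a relative of Klf9, was detected in cells 1, 4, 6, 7 and 12, at signals of 353 to 815, and read at most 53.3 in the other 9. Klf9, which was detected in 11 of the 14 cells, was also detected in all 5 of these cells. The other 2 probe sets of Klf13 shared no detection with the chosen one: 1 was detected in cell 14 alone at 89.6 while reading up to 113 in cells without detection, and the other was detected in none. Klf16, another relative, read 1750 in cell 8 and at most 62.5 elsewhere. No second probe set of Klf16 was annotated, so this single detection has no check.

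The other suppressor and the remaining members left little signal. Klf4, a suppressor of axon growth that is also a pluripotency factor, was not detected by its chosen probe set, which read 0.96 to 76.8 with a median of 18.2. Its second probe set was detected in cell 7 alone, at 176 against a threshold of 124.8, and read 1.13 to 67.0 in the other 13 cells. Klf5, known from proliferating epithelia, was not detected by any of 3 probe sets, which read at most 89.3. Klf2, a factor of quiescent endothelial and T cells, was detected in cell 13 alone, at 151, and its next highest signal was 104 in cell 1. No endothelial or pericyte marker was detected in cell 13. Over all cells 0 to 2 of 10 such markers were detected per cell, and 5 of the 10, among them Pecam1, Cdh5 and Vwf, in no cell. Cldn5 and Kdr were detected in cell 6 at 7992 and 2152, Tek in cell 4 at 2000 and Esam in cell 5 at 255. Pdgfrb was detected in 4 cells at 114 to 234. The part of vascular transcripts in the members' signals was not tested. For Klf3, 5 of 7 probe sets were detected in no cell. The other 2 gave 4354 in cell 6 and 141 in cell 12, and 502 in cell 4, so that Klf3 was detected in 3 cells by any probe set and in none by the chosen one. The signal of 4354 stood in a cell rich in rod transcripts, and the part of those in it was not tested. For a gene detected in 0 of 14 cells the exact Clopper-Pearson 95% interval reaches up to 23.2% of cells, and covers counting error only.

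**Figure D2:**
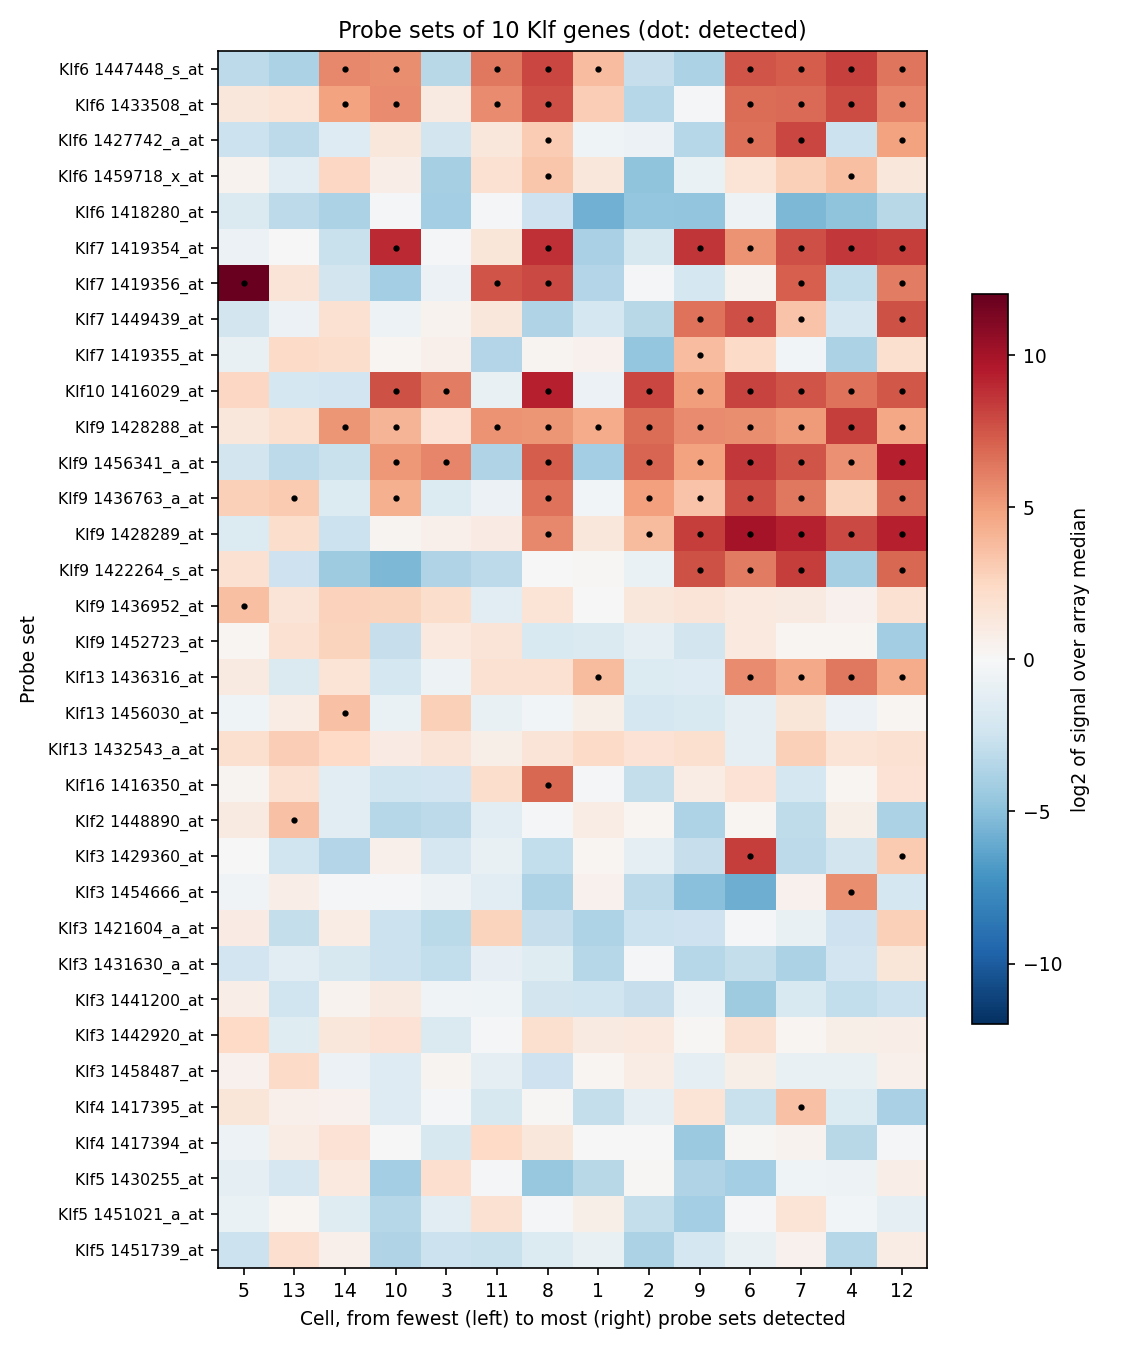
Signal over the array median (colour, log2 scale) of the 34 probe sets of the 10 genes (rows) in the 14 cells (columns, from the fewest to the most probe sets detected), with a dot where the signal was at least 8 times the median. Probe sets of Klf6, Klf7 and Klf9 differ in the cells they mark, and a Klf7 probe set is high in cell 5, where no chosen probe set was detected.

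Across the family, 22 of the 34 probe sets were detected in at least 1 cell (64.7%), against 46.9% of all probe sets. Among the 7 members with several probe sets, 21 of 31 detections (67.7%) were shared by another probe set of the gene, against 49.5% over all such genes. A gene with more probe sets has more chances to share, and the number per gene was not matched. Klf6 and Klf9, with 5 and 7 probe sets, gave 8 shared detections each, Klf7 gave 5 and Klf13 none. The 2 shares are therefore not like for like. By any probe set, 9 of the 10 members were detected in at least 1 cell, and the same 4 members in at least 7.

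The number of members per cell was uneven. It averaged 3 ± 1.80 (SD, n = 14 cells). Cells 4, 6, 7, 8 and 12 each showed 5, cell 10 showed 4, cell 9 showed 3, cells 1, 2, 11 and 14 showed 2, cells 3 and 13 showed 1 and cell 5 showed none. Cells with more probe sets detected in all tended to show more members (Pearson's r = 0.757, Spearman's rho = 0.792, n = 14 cells, and r = 0.673 without cells 4 and 12, the 2 farthest from the median of probe sets). Members and probe sets were counted in the same libraries with the same threshold, so part of this relation is built in. Cells 8 and 10 showed 5 and 4 members with 7200 and 6129 probe sets, while cell 2 showed 2 with 9162. The ratio of 3' to 5' Gapdh signal, a sign of RNA quality, was 1.09 to 1.55 in 12 cells, 1.95 in cell 13 and 2.61 in cell 14, which showed 1 and 2 members. Its part in these counts was not tested.

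**Figure D3:**
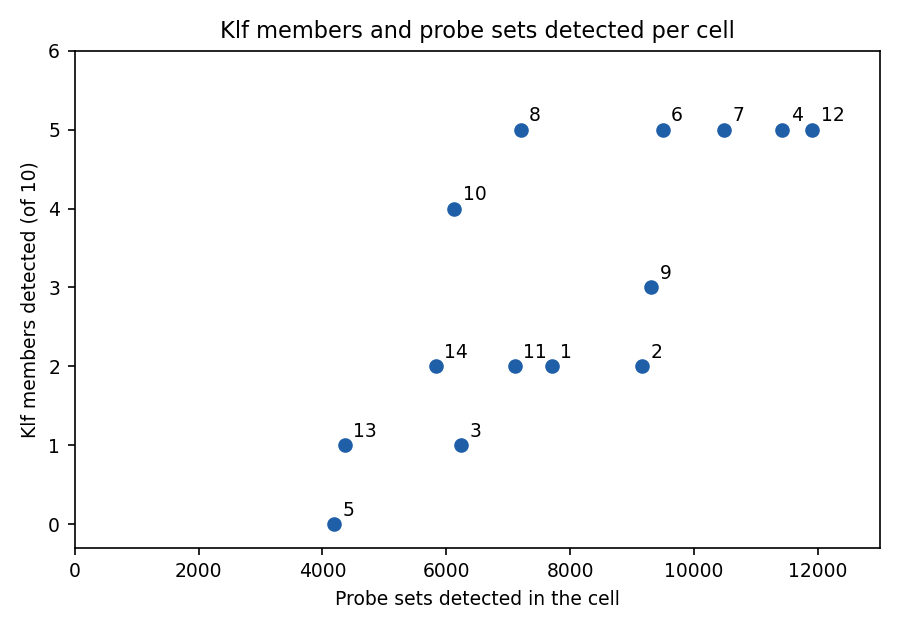
Number of the 10 Kruppel-like factor genes detected (vertical axis) against the number of all probe sets detected (horizontal axis) in each cell, labelled by its number. Cells 4, 6, 7, 8 and 12 show 5 members, and cell 5, with 4191 probe sets, shows none.

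The cells of the enhancers were set beside those of the suppressor Klf9. Klf9 was detected in 11 of the 14 cells by its chosen probe set and in all 14 by any. Overlap with it was therefore largely fixed by its breadth, and no share of overlap over all genes was counted. Klf9 also had r = 0.767 with the log2 number of probe sets detected. Nothing is read from these overlaps about enhancers and suppressor. By the chosen probe sets, Klf6 and Klf7 were detected together in cells 4, 6, 7, 8, 10 and 12, Klf6 without Klf7 in cells 11 and 14, and Klf7 without Klf6 in cell 9. By its chosen probe set Klf9 was detected in all 9 of these cells, and also in cells 1 and 2, where the chosen probe set of neither enhancer was. The 6 cells with both enhancers also held Klf10. Klf9 and Klf10 shared 8 cells, and in cells 5 and 13 the chosen probe set of none of the 4 genes was detected. The split changed when any probe set counted. Klf6 and Klf7 were then together in 7 cells, with cell 11 added, Klf6 was without Klf7 in cells 1 and 14, and Klf7 was without Klf6 in cells 5 and 9. Neither was found in cells 2, 3 and 13, and Klf9 was found in all 14. Signals of different probe sets have no common scale, so these data do not say which factor was the more abundant in a cell.

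Signals of the members were compared pair by pair. Among the 10 pairs of the 5 members detected in at least 4 cells, Pearson's r on log2(signal + 32) ran from 0.157 for Klf10 and Klf13 to 0.704 for Klf7 and Klf10, which was the single pair at 0.7 or more. Spearman's rho of that pair was 0.600, and r was 0.703 without cells 9 and 10. For each pair the 2 cells left out were those farthest from the median of the first-named gene. The pair of enhancers, Klf6 and Klf7, had r = 0.615 and rho = 0.538, and r = 0.824 without cells 2 and 9. Klf6 and Klf9 had r = 0.449 and rho = 0.178. The latter depended on few cells, since r was 0.854 without cells 2 and 9. Both of these cells held Klf9 without Klf6, and cell 9 held Klf7 too, so leaving them out took away cells in which the genes differed. All of these are descriptions over 14 cells that differ in depth, and each member alone had r of 0.444 (Klf6) to 0.767 (Klf9) with the log2 number of probe sets detected.

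The genes most like each member over the 14 cells were taken as the 3 with the highest r among 6882 others detected in at least 4 cells. For Klf6 they were Snapc3, a subunit of the complex that starts snRNA transcription (r = 0.889), Dmap1, a chromatin protein (0.868), and the mitochondrial adenylate kinase Ak4 (0.866). Snapc3 and Dmap1 were detected in exactly the 8 cells of Klf6. For Klf7 they were the oxygen sensor Egln1 (r = 0.947), the histone demethylase Kdm2a (0.935) and Fam136a (0.918), and the first 2 marked the same 7 cells. For Klf9 they were the syntenin gene Sdcbp (0.891), Ankrd40 (0.883) and the proteasome subunit Psmc6 (0.876). For Klf10 they were Pqbp1 (0.949) and Sf3a3 (0.928), which act in splicing, and the endoplasmic reticulum protein Erp29 (0.898). Pqbp1 and Erp29 were detected in the same 9 cells as Klf10. For Klf13 they were Tmco3 (0.946), the glutathione transferase Gsta4 (0.930) and Utp14a (0.922), each in the same 5 cells as Klf13. Genes with r of at least 0.7 made up 0.915% of those searched for Klf6, 1.73% for Klf7, 2.09% for Klf13, 2.95% for Klf10 and 3.39% for Klf9. These are the extremes of a long search over cells of unequal depth, and the genes share with the member the cells in which they were found.

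Other members of the wider family were counted by their chosen probe sets. None of 6 other Klf genes measured was then detected in at least 7 cells, against 24.8% of all genes. Klf12, a repressor, was detected in 5 cells (2, 4, 7, 8 and 9) at signals of 377 to 2680.5 and read up to 291 where not detected. Another probe set of Klf12 read 13003 in cell 8 and was also detected in cells 6 and 12. Counting any probe set, Klf12 was thus in cells 2, 4, 6, 7, 8, 9 and 12, so its count depends on the probe set. Klf11, a close relative of Klf10, was detected in cell 4 at 1323, Klf15 in cell 12 at 144, and Klf1, Klf14 and Klf17 in none. Of 7 Sp genes, which bind the same GC-rich sites, Sp4 was detected in 3 cells, Sp1 in 2, Sp3, Sp6 and Sp7 in 1 and Sp5 and Sp8 in none. The detections of Sp6 and Sp7 were weak and both in cell 13, at 123 and 138. The medians were 0.5 cells for the other Klf genes and 1 for the Sp genes, against 3 for the members and 1 for all genes.

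Of 15 cofactors and regulators of these factors, 6 (40%, against 24.8% of all genes) reached at least 7 cells, 8 were found in fewer and Sap30 was not detected. Mapk10 encodes the kinase JNK3, which binds Klf9 and takes part in its effect on axons, and it was detected in all 14 cells at signals of 10356 to 57477. The corepressor Ctbp1, a partner of Klf3, was in 13 cells, the deacetylase Hdac2 in 10 and Ctbp2 in 9. The corepressors Sin3b and Sin3a were in 5 cells and in 1. Stat3, a growth-promoting factor that Klf4 can bind, was in 6 cells at 389.9 to 2553. Of 11 hormone receptors and their targets, the thyroid hormone receptor Thra was in all 14 cells (5456 to 77373) and Thrb in none. The glucocorticoid receptor Nr3c1 was in cell 8 only, at 131, and read up to 273 in cells without detection. Other receptors of the list were found more widely, Rxrb in 9 cells, Nr3c2 in 8 (550 to 4001) and Rxra in 7. The glucocorticoid-induced Tsc22d3 was in 9 cells, Per1 and Sgk1 in 6 and Fkbp5 in 5.

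Genes proposed as targets of these factors in neurons ranged from all cells to none. Of 11 measured, the adhesion molecule L1cam (1158 to 32811) and the growth cone genes Gap43 (767 to 23211) and Stmn2 (5789 to 54996) were in all 14 cells, also in cells 5 and 13, where none of Klf6, Klf7, Klf9 and Klf10 was detected by the chosen probe set. The neurotrophin receptor Ntrk2 was in 8 cells, the cell cycle inhibitor Cdkn1b in 6 and Cdkn1a in cell 10 only. Dusp14, a phosphatase reported to act downstream of Klf9, was in none and read at most 65.6, and Socs3, Sprr1a and Plaur were also in none. Of 18 axon growth and regeneration genes, 12 (66.7%, against 24.8% of all genes) were in at least 7 cells. The list was chosen with earlier results known, and nothing is read from this share. Tubb3 and Rheb were in all 14 cells, Basp1, Lingo1 and Marcks in 13, and the injury-induced Sox11 in 3, Jun in 2 and Atf3 in none.

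Several members are early response genes, which rise with activity or stress. Of 20 immediate early genes, Jund alone reached 7 cells (5%, against 24.8% of all genes). Of the others, 15 were found in fewer cells and 4 were not detected, and the median of the list was 1 cell. Dusp1 was detected in cells 2, 7, 8 and 9, Fos in cells 7, 8 and 9 and Egr1 in cells 6, 7 and 8. Klf10 was detected in all 5 of these cells (680.0 to 9193), and also in cells 3, 4, 10 and 12, where Dusp1, Fos and Egr1 were not, with 7194 in cell 10. These 3 genes were chosen after their values were seen, and others of the list were found without Klf10. Cell 5 showed 6 immediate early genes, as many as cell 7 and more than any other cell, and no member by a chosen probe set. Its Egr4, Junb, Nr4a3 and Egr3 read only 72.0 to 113 against a threshold of 65.3. Each of these genes read higher in another cell where it was not detected. Its Jund and Ier5 read 2338 and 19683. In cell 7 Dusp1, Fos, Egr1 and Npas4 read 2501 to 16735, and Fosb and Nr4a2 read lower. The equal counts therefore rest on unlike signals. Jund was detected in cells 4, 5, 6, 8, 12, 13 and 14, of which cells 5, 13 and 14 lacked Klf10, and its r with Klf10 was 0.0211 (rho = -0.0593, n = 14 cells). Klf6 was detected in cells 6, 7 and 8 at 1505, 1787 and 3069, and in cells 2 and 9, which held Dusp1, it read 1.40 and 19.3. Klf4 was found by its second probe set in cell 7 alone, which, like cell 8, held all of Dusp1, Fos and Egr1.

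**Figure D4:**
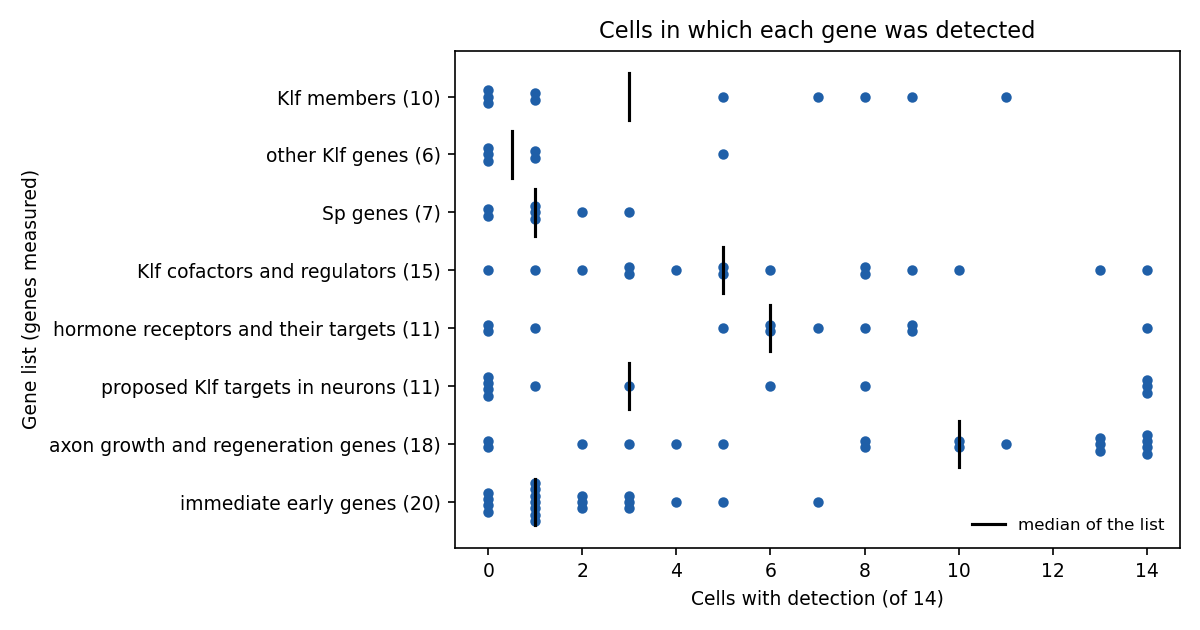
Number of cells, of 14, in which each gene was detected (horizontal axis), for the members and 7 further gene lists (vertical axis, number of genes measured in brackets), with the median of each list as a black bar. Each gene is counted by its chosen probe set. Other Klf and Sp genes lie at 0 to 5 cells, while cofactors and axon growth genes reach up to 14.

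Promoters of the members were searched for the motifs that the family itself binds. RefSeq sequences (GRCm38.p6) of the 250 bases before the start were matched for 7 of the 10 members by symbol, and the entry of Klf7 does not lie at the annotated start of its gene. The 7 windows held 59.2% to 78.4% G and C, against a median of 52.4% over all 32851 promoters. The GC box (GGGCGG or CCGCCC, that is, both strands) was in 6 of the 7, all but Klf9, against 32.7% of all promoters, and the CACCC box (CACCC or GGGTG) was in 5 of the 7, against 52.0%. Without Klf7 the GC box was in 5 of 6 and the CACCC box in 4 of 6, and the lowest G and C content was 59.6%. Matches of both motifs can overlap. The CCAAT box (CCAAT or ATTGG) was in Klf6, Klf9 and Klf13, against 33.8%. A match is a description and not a binding site. The sequences of 3 members that stand for the enhancers, the widely detected suppressor and the undetected suppressor follow, 5' to 3', with GC and CACCC boxes in capitals. Klf6 was detected in 8 cells and has 1 GC box and 4 CCAAT boxes, Klf9 was detected in 11 cells and has 1 CACCC box and 3 CCAAT boxes, and Klf4 was detected in none by its chosen probe set and has 4 GC boxes.
Klf6 (chr13:5861239-5861488, plus strand): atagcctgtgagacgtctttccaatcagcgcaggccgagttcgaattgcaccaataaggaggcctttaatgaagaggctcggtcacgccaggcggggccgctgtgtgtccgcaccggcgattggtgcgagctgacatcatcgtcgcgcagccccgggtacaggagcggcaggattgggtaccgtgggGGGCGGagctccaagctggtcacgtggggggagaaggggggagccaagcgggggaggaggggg
Klf9 (chr19:23140976-23141225, plus strand): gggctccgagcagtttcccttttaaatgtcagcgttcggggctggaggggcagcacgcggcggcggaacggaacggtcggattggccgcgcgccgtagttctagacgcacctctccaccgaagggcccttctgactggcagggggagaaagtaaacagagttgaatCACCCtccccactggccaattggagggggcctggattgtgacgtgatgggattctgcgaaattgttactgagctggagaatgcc
Klf4 (chr4:55532476-55532725, minus strand): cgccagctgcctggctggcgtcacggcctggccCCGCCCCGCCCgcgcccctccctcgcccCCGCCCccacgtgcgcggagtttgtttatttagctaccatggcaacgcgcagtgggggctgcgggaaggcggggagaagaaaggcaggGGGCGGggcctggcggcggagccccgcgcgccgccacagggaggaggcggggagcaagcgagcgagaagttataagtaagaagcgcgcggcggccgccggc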

How the data were processed

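The authors deposited MAS5 signal intensity on a linear scale for 1 Affymetrix array per cell, and the labels name no release of MAS5. RNA of each of 14 cells was primed with oligo-dT and amplified by 35 cycles of PCR, which favours 3' ends. The number of arrays limits the precision.

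Of 45101 probe sets, 64 were controls and were left out. The annotation gave 1 gene to 34945 of the remaining 45037, several to 932 and none to 9160. Symbols were updated by gene number, with 34741 matched to a RefSeq table (GRCm38.p6). Each gene was represented by the probe set whose log2 signal was highest on average, and 9010 of 18193 genes had several. Detection required 8 times the array median. None of 378 values of 27 control probe sets of other organisms passed. Correlations used log2(signal + 32), in Python 3.11.15 with scipy 1.17.1. The detection rule and the correlation were also tried on simulated signals with planted values, which does not test the rest of the code.

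The members and lists were chosen with earlier results of these data known. Named genes were all members, the most and least widely detected genes of each list, and the 3 genes most correlated with each member detected in at least 4 cells. Other genes named from the lists, such as Klf12, Stat3, Dusp1, Fos and Egr1, were chosen after their values were seen. Marker lists of other cell types had medians of 0 cells per gene for cone, amacrine, horizontal, microglia and red blood cell. The medians were 0.5 for endothelium and pericytes, 1 for Müller glia, astrocyte and oligodendrocyte, 2 for rod and 2.5 for bipolar. Of the 3 red blood cell genes measured, Hba-a2 was nevertheless detected in 10 cells, at 1351 to 18627. Alternatives were other thresholds, other ways to join probe sets, quantile normalization, other pseudocounts and leaving out pairs of cells.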

Additional observations from a re-analysis of the deposited data

How the results depend on the processing

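The number of members detected in at least 7 cells, or the same share when cells were left out, stayed at 4 in 7 of 10 alternatives, which include thresholds of 4 and 16 times the median, quantile normalization and leaving out cells 3 and 6 or cells 5 and 13. It was 1 at a fixed signal of 1000, 2 with the mean log2 signal over the probe sets of a gene, and 1 with the 4191 highest probe sets of every cell, an alternative chosen after seeing the data. The mean number of members per cell, which was 3, lay between 1.29 and 3.79. It fell to 1.64 at a signal of 1000 and to 1.29 with the 4191 highest probe sets of every cell, so it depended on the threshold. These moves were smaller than the SD between cells, 1.80, which measures how cells differ and not how stable the mean is. The number of probe sets detected in at least 1 cell lay between 16 and 29, except for 14 at a signal of 1000. The count of member pairs with r of at least 0.7, which was 1, was 0 with quantile normalization, without cells 5 and 13, with a smaller and a larger pseudocount and with Spearman's rho, 2 with the mean over probe sets, and 1 without cells 3 and 6. Klf10 kept 7 to 10 cells and Klf7 5 to 9 over the 10 alternatives, while Klf6 ranged from 2 to 9, Klf9 from 1 to 14 and Klf13 from 0 to 6. The causes were not tested. Arrays give no direct measure of depth, which here means the number of probe sets detected in a cell. A signal near its array's threshold is the weakest kind of detection here. No paired analysis was possible because all cells form 1 group.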
